A study of Mus musculus with 6 samples.

Results

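Parvalbumin interneurons of the mouse frontal lobe were followed here as Pvalb nuclei, single nuclei chosen by the unique molecular identifiers (UMIs) counted for a few genes. A nucleus, known by its barcode, qualified when it showed 500 or more genes, no more than 5% of its UMIs from mitochondrial genes, at least 2 Pvalb UMIs, at least 2 UMIs of Gad1 and Gad2 together, fewer than 5 Sst UMIs, fewer than 3 Vip UMIs, at most 1 UMI of Slc17a7 and Slc17a6 and at most 2 of Rgs9 and Adcy5. Of 39752 barcodes 30840 passed the first pair of limits, and 106 of those were Pvalb nuclei. Because the gate read Pvalb, Gad1, Gad2, Sst, Vip, Slc17a7, Slc17a6, Rgs9 and Adcy5, the levels of these genes describe the choice and were not tested. A pair of neighbouring classes served for comparison. Sst nuclei had at least 5 Sst UMIs and fewer than 2 Pvalb UMIs (181 nuclei), and Vip nuclei had at least 3 Vip UMIs, fewer than 5 Sst UMIs and fewer than 2 Pvalb UMIs (110 nuclei), all other limits being the same. Slc17a7 nuclei, taken as excitatory neurons, had at least 3 Slc17a7 UMIs and at most 1 UMI of Gad1 and Gad2 together (5530 nuclei). They met the same limits on genes and mitochondrial UMIs and no other limit.

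Parvalbumin interneurons are inhibitory neurons of the forebrain that release GABA onto the cell bodies and axon starts of their targets. Most arise in the medial ganglionic eminence under the transcription factor Lhx6, as do the neighbouring somatostatin interneurons. They are known for fast, sustained firing, which rests on Kv3 and Kv1 potassium channels, on sodium channels of the axon and on a high supply of energy, and many are wrapped in a perineuronal net of extracellular matrix.

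The nuclei described here came from the frontal lobe of 6 mice of the Tg-SwDI line, which carries a human amyloid precursor protein transgene and develops amyloid in brain vessels. Trem2, a receptor of microglia, was knocked out in 3 mice (SwDI/TKO, called knockout) and wild type in the other 3 (SwDI/TWT, called wild type), and every mouse of both groups carried the SwDI transgene. Each mouse gave 1 library of droplet-based single-nucleus 3′ RNA sequencing, which counts UMIs. The labels give neither age, sex nor the Trem2 allele, and replicate numbers follow accession order and pair no mice. Of the 106 Pvalb nuclei the knockout libraries held 34, 9 and 14 and the wild-type libraries 11, 29 and 9, in the order of their replicates.

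The first knockout library differed in kind from the rest. Knockout replicate 1 was counted with Cell Ranger 7.0.0 and the others with 6.1.2, per the file headers, and its total of 51317961 UMIs compared with 11493087 to 17835287 elsewhere. In its Pvalb nuclei the fifth of genes with the most intron bases lay 2.53 higher on the log2 scale, relative to the fifth with the fewest, than in the other libraries, where this difference ran between -0.21 and 0.33. Software version and genotype cannot be told apart in that library, so genotype comparisons are given over 6 libraries and over the 5 of 1 version. Between 8 and 18 barcode sequences were shared by any pair of libraries, and 1 Pvalb nucleus had a barcode found in another library too, where it was no Pvalb nucleus. Doublet calling marked 1 of the 106, in knockout replicate 2, but it marked only 1 and 2 barcodes in wild-type replicates 2 and 3 and so did not work there.

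Trem2 itself gave 0 UMIs in the Pvalb nuclei of every library. The 708616 UMIs of the Pvalb nuclei allow a Trem2 level of up to 4.23 CPM (UMIs of a gene per 1e6 UMIs), counting 3 UMIs as the limit behind a count of 0. Over all kept barcodes it was at 2.92, 11.2 and 5.76 CPM in knockout replicates 1 to 3, against 20.4, 12.3 and 9.42 CPM in wild-type replicates 1 to 3. The groups overlap at that level, which moves with the share of microglia, and a 3′ tag outside a deleted part would not show a deletion.

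Pvalb UMIs were few per nucleus. The 106 nuclei held 282 Pvalb UMIs, with a median of 2 and a highest value of 8, and 62 sat at exactly the lower limit of 2. Just outside the limit were 103 nuclei with 1 Pvalb UMI that met every other condition. Lhx6 was detected in 41 of those 103, against 20 of the 62 nuclei just inside, Erbb4 in 78 against 50, Kcnc2 in 60 against 41 and Nxph1 in 79 against 47, where the first number is always that of the nuclei outside. Both sides of the limit held nuclei with these markers. Pvalb lies on chromosome 15 (78191114 to 78206400, minus strand, mm10, GENCODE M21). At least 1 Pvalb UMI was found in 0.904% of 5530 Slc17a7 nuclei, excitatory neurons that should lack it, whose median depth was 10006, 3988 and 4291 UMIs in the knockout libraries and 3771, 3132 and 3391 in the wild-type libraries.

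The other markers of the class were present. At equal depth, as given further on, several were detected more often in Sst or Vip nuclei. Kcnc1, the Kv3.1 potassium channel, was detected in 103 of the 106 nuclei, and Erbb4, the neuregulin receptor of these interneurons, in 85. Nxph1, a neurexin ligand, was found in 86, Sox6, a transcription factor of the lineage, in 67, and Kcnc2, the Kv3.2 channel, in 68. Syt2, the synaptotagmin of fast inhibitory terminals, was detected in 60 and Lhx6 in 40. Of the 106 nuclei 103 had at least 3 of 11 markers that the gate did not read, and 1 had none. The same count was not made in Sst or Vip nuclei. Lhx6 was seen in 15 of 34, 6 of 9 and 7 of 14 knockout nuclei and in 2 of 11, 6 of 29 and 4 of 9 wild-type nuclei. The nuclei with Lhx6 were deeper, with a median of 6818 UMIs compared with 4753 in the 66 nuclei without it. Both sets held Kcnc1 in nearly every nucleus (39 of 40 with and 64 of 66 without Lhx6), and Sox6 was seen in 77.5% and 54.5%.

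**Figure D1:**
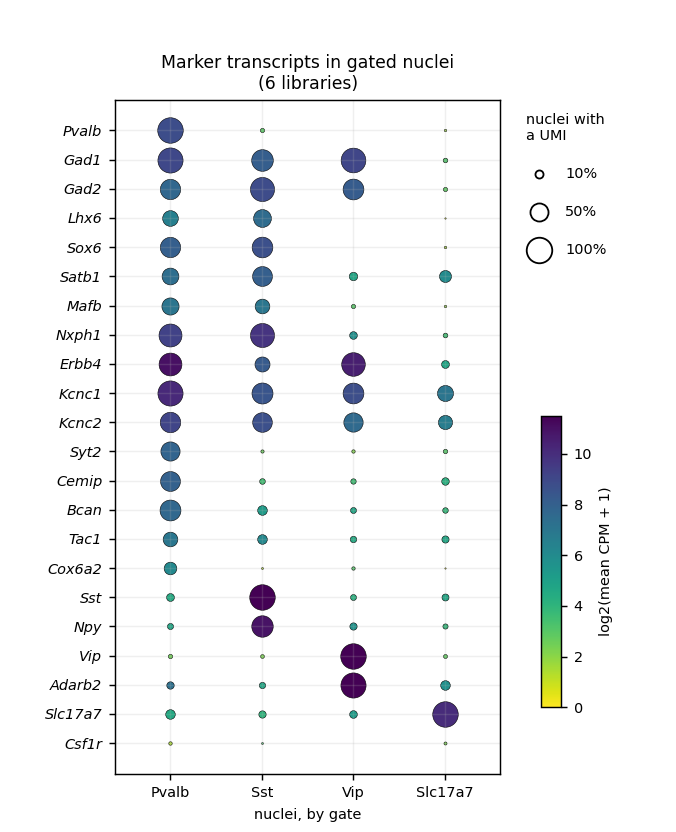
Marker transcripts by gate in the 6 libraries; circle area gives the percent of nuclei with at least 1 UMI and colour gives log2 of the mean CPM over 6 libraries plus 1. Syt2 was detected in 56.6% of Pvalb, 1.66% of Sst, 1.82% of Vip and 2.93% of Slc17a7 nuclei, whereas Lhx6 was in 37.7% of Pvalb and 48.6% of Sst nuclei and in 0 of 110 Vip nuclei, which allows up to 2.73% of nuclei with an Lhx6 UMI and sets no limit on those that express it; Pvalb, Gad1, Gad2, Sst, Vip and Slc17a7 were read by the gates.

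Detection depends on depth, so shares were also taken after each nucleus was thinned to 2000 UMIs, which kept 105 Pvalb, 167 Sst, 101 Vip and 5188 Slc17a7 nuclei. Syt2 was then in 33.3% of Pvalb nuclei, 0.599% of Sst nuclei, 0.990% of Vip nuclei and 1.35% of Slc17a7 nuclei. Lhx6 was in 14.3% of Pvalb nuclei, 25.1% of Sst nuclei and 0.0771% of Slc17a7 nuclei. Kcnc2 was in 46.7%, 49.1% and 47.5% of Pvalb, Sst and Vip nuclei, so its detection did not set the class apart from other interneurons, and 18.1% of Slc17a7 nuclei held it. Cox6a2, a cytochrome oxidase subunit known from these interneurons in mouse, was in 11.4% of Pvalb nuclei, 0.599% of Sst nuclei and 0.116% of Slc17a7 nuclei.

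Genes that divide the class further were sparse. Calb1 and Pthlh were each detected in 14 of 106 nuclei, Reln in 12, Tac1 in 35 and Th in 1. Of the genes linked to chandelier cells, the type that contacts the axon initial segment, Unc5b was in 11 nuclei, Cpne5 in 10 and Vipr2 in 2, and no gene of that list was abundant enough to test between the genotypes or against Sst or Vip nuclei. Cpne5 alone entered the test of class by genotype given further on, where it was not called (log2 3.48 over 6 libraries and 3.51 over 5, with edgeR adjusted p = 0.99986 and 0.978). Acan, the core proteoglycan of perineuronal nets, was in 12 nuclei and its link protein Hapln1 in 10, whereas Bcan, another proteoglycan of the net, was in 71.

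Transcripts of other cell types were low in the Pvalb sums of every library. The 12 excitatory markers took 0.0397% to 0.0526% of UMIs in knockout libraries and 0.0364% to 0.0515% in wild-type libraries, against 0.233% to 0.338% in Slc17a7 nuclei. The 10 microglial markers took 0.00441% to 0.0109% in knockout and 0.00429% to 0.00929% in wild-type libraries, with Trem2 and Tmem119 at 0. The 10 astrocyte markers took 0.0205% to 0.04255% in knockout and 0.0236% to 0.0336% in wild-type libraries, against 0.00459% to 0.02995% in Sst nuclei. Of these Slc4a4 was found in 71 of the 106 nuclei, Slc1a2 and Aldoc in 13 each, Slc1a3 in 6, and Aqp4, Gja1, Gfap and Fgfr3 were at 0. The 10 oligodendrocyte markers took 0.0046% to 0.0463% in knockout and 0.0193% to 0.0406% in wild-type libraries, with none at 0. Markers of the Sst class took 0.0126% to 0.0205% in knockout and 0.0177% to 0.0322% in wild-type libraries, against 0.386% to 1.38% in Sst nuclei. The excitatory list holds Slc17a7 and Slc17a6, and the Sst list holds Sst. The gates read these genes, so part of both gaps was set by the choice of nuclei. At least 3 of 14 markers of subcortical GABAergic neurons were found in 3 of the 106 nuclei.

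The share of Pvalb nuclei among kept barcodes showed no difference beyond the spread between mice. It was 0.444%, 0.216% and 0.344% in knockout replicates 1 to 3, against 0.246%, 0.558% and 0.171% in wild-type replicates 1 to 3. The highest and the lowest share both belonged to wild-type mice, so the knockout values lay inside the wild-type range. The means were 0.335% ± 0.114 in knockout and 0.325% ± 0.205 in wild type (SD, n = 3 each), a difference of 0.00959 percentage points (exact permutation test over 20 assignments, two-sided, p = 1, where 0.1 is the smallest p possible). The 95% Clopper-Pearson intervals, which cover counting error only, ran from 0.307% to 0.619% in knockout replicate 1 and from 0.374% to 0.800% in wild-type replicate 2. The sign of the difference turned when replicate 1 of the knockout (-0.0449) or replicate 1 (-0.0298) or 3 (-0.0676) of the wild type was left out, and without wild-type replicate 2 the difference was 0.126.

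**Figure D2:**
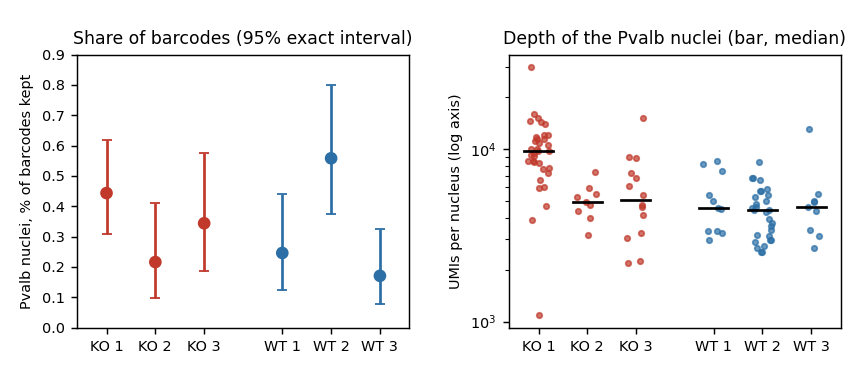
Left, Pvalb nuclei as a percent of the barcodes kept in each library, with 95% exact binomial intervals; right, UMIs per Pvalb nucleus on a log axis, 1 point per nucleus, with the median as a bar. Knockout shares of 0.216% to 0.444% lie within the wild-type span of 0.171% to 0.558%, and the median depth of knockout replicate 1 is 9767.5 UMIs compared with 4422 to 5078 in the other 5 libraries.

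Restricting the class to nuclei with at least 1 Lhx6 UMI gave 0.171% ± 0.0258 in knockout and 0.0787% ± 0.0355 in wild type (SD, n = 3 each). The exact two-sided permutation p was 0.1, which no arrangement of 3 against 3 can undercut. This restriction was 1 of 6 other definitions of the share that were tried. Depth moves with it: the median depth of Pvalb nuclei was 9767.5, 4948 and 5078 UMIs in knockout and 4548, 4422 and 4590 in wild-type replicates 1 to 3, and its part in that share was not tested. Among Pvalb, Sst and Vip nuclei together the Pvalb share was 30.0% ± 7.40 in knockout and 25.4% ± 12.1 in wild type (SD, n = 3 each; exact permutation test, two-sided, p = 0.6).

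Set against Sst nuclei of the same libraries, Pvalb nuclei had more transcripts of several channels behind fast firing, of several GABA-A receptor subunits, of Erbb4, of Syt2 and of Bcan, and fewer of Npy, of Grin3a and of other markers of the Sst class. UMIs were summed per library and class, and edgeR's quasi-likelihood test with the library as a block called 373 of 1580 genes tested (23.6%) at a Benjamini-Hochberg adjusted p under 0.05. Of these 168 (10.6%) were higher and 205 (13%) were lower in Pvalb nuclei. Without knockout replicate 1 the test called 243 of 1330, of which 232 were among the 373. Pvalb nuclei were also the deeper class, with a median of 4422 to 9767.5 UMIs per library compared with 3060 to 8072 in Sst nuclei. The filter keeps a gene when 1 of the classes has enough UMIs, so a gene that passed only through the class where it is high had to differ. Syt2, Cemip, Bcan, Gabrd, Srrm4, Npy, Grin3a and Man1a were among such genes.

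Of the ion channel genes of fast firing, those abundant enough to test were higher. Of 22 genes, 11 passed the filter, and all 11 were higher in Pvalb nuclei, 8 of them called, and their median on the log2 scale was 0.95, against -0.0014 over all 1580 genes. Without knockout replicate 1, 11 were again tested, all of them higher and 9 called. The other 11 were too low to test, and by mean CPM over 6 libraries 7 of them were higher and 4 lower in Pvalb nuclei. Among the lower ones Kcnt2, a sodium-activated potassium channel, averaged 1.44 ± 3.52 CPM in Pvalb and 34.6 ± 35.7 CPM in Sst nuclei, and Kcnc4, the Kv3.4 channel, 1.44 ± 3.52 and 24.1 ± 17.2 CPM (SD, n = 6 libraries). Kcna1, the Kv1.1 channel of axons (chromosome 6, 126640397 to 126646384), had 264, 860 and 602 CPM in the Pvalb nuclei of the knockout libraries and 742, 797 and 1245 CPM in those of the wild type. The Sst nuclei had 62.5, 162 and 138 CPM in the knockout and 151, 187 and 155 CPM in the wild-type libraries. Every Pvalb value exceeded every Sst value, and Pvalb nuclei were higher by 2.31 on the log2 scale, in 6 of 6 libraries (SE 0.18; edgeR adjusted p = 2.07e-16).

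Kcnc1 (chromosome 7, 46396497 to 46438704) followed the same pattern. It had 529, 1323 and 1421 CPM in the Pvalb nuclei of the knockout and 1183, 1316 and 1181 CPM in those of the wild type, against 169, 342 and 367 CPM and 532, 454 and 246 CPM in the Sst nuclei of the same libraries. The lowest Pvalb value, that of knockout replicate 1, was below the highest Sst value, but within each library Pvalb nuclei were higher (log2 1.70, SE 0.15; edgeR adjusted p = 3.23e-14). The sodium channel genes Scn1a (log2 1.04) and Scn8a of the axon initial segment (log2 0.91) also rose. Kcna2, the Kv1.2 channel, was higher by 0.95 on the log2 scale. Kcnc2 had 563 ± 922 CPM in Pvalb and 411 ± 637 CPM in Sst nuclei, and its difference did not pass (log2 0.40, SE 0.20; edgeR adjusted p = 0.133).

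**Figure D3:**
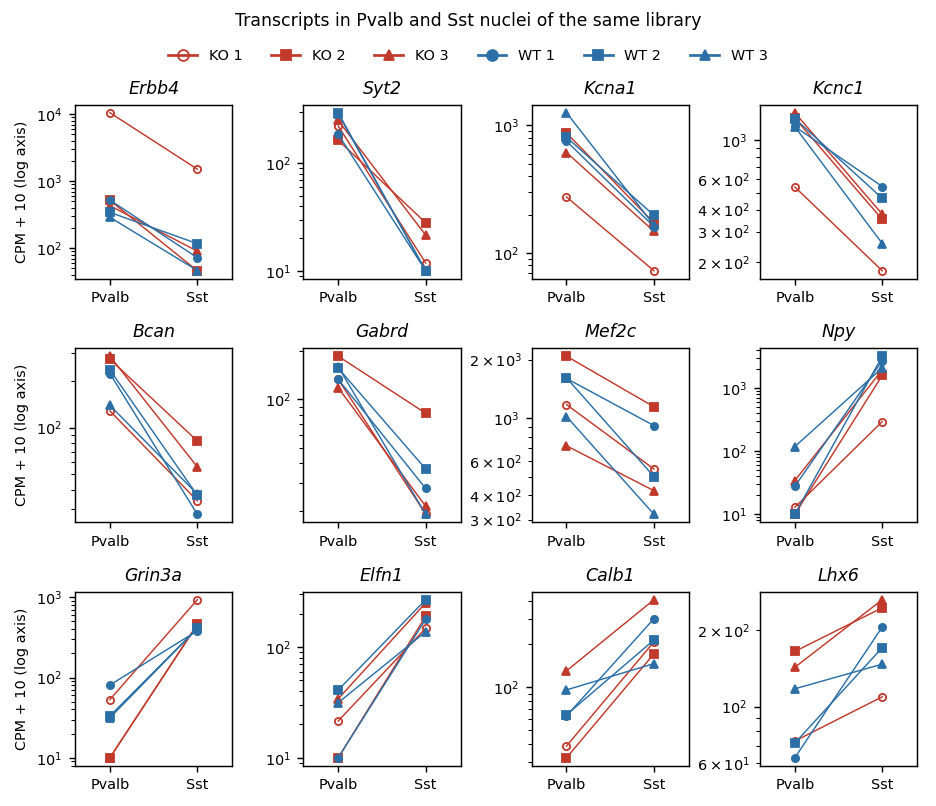
CPM plus 10 on a log axis in Pvalb (left) and Sst nuclei (right), with a line for each library; red is knockout, blue is wild type and the open circle is knockout replicate 1. Lines of Erbb4, Syt2, Kcna1, Kcnc1, Bcan, Gabrd and Mef2c fall towards Sst nuclei and those of Npy, Grin3a, Elfn1, Calb1 and Lhx6 climb, in all 6 libraries of each panel.

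Receptors for GABA differed in composition. Of 15 subunit genes 10 were tested, 5 were called higher and 2 lower. Gabrd, the delta subunit of extrasynaptic receptors, averaged 138 ± 24.5 CPM in Pvalb and 24.4 ± 24.3 CPM in Sst nuclei (SD, n = 6; log2 2.93, SE 0.34). As Gabrd could pass the filter only through Pvalb nuclei, it had to be higher there. Gabrb2 and Gabrg3 were each higher by 1.58 on the log2 scale. The lower ones were the beta1 subunit gene Gabrb1 (log2 -1.20) and the GABA-B receptor gene Gabbr1 (log2 -0.59), which was not called without knockout replicate 1 (edgeR adjusted p = 0.0692) or wild-type replicate 2. Without knockout replicate 1 only 4 of the 15 passed the filter, of which 2 were called higher, and Gabrd, Gabrb2, Gabrg3 and Gabrb1 were too low to test. Of 12 genes for making and moving GABA 6 were tested and 1 was called higher, and none was called without knockout replicate 1.

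Glutamate receptor genes were mostly lower, with 11 of 15 tested below 0, 6 called lower and 2 higher (median log2 -0.38). Grin3a, an NMDA receptor subunit of Sst neurons, averaged 26.4 ± 27.1 CPM in Pvalb and 499 ± 210 CPM in Sst nuclei (SD, n = 6; log2 -4.30, SE 0.28). The kainate receptor Grik1 (log2 -1.32) and the AMPA receptor subunit Gria1 (log2 -0.90) were lower in all 6 libraries. Those that were higher were Cacng2, the AMPA receptor auxiliary subunit stargazin (log2 0.96), and Gria4 (log2 0.43). Gria4 was not called when any library other than wild-type replicate 2 was left out (highest edgeR adjusted p = 0.167).

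Erbb4 (chromosome 1, 68032186 to 69108059, with 1063519 intron bases) showed both the class difference and the split by software. Pvalb nuclei had 10523, 507 and 421 CPM in the knockout and 512, 333 and 279 CPM in the wild type. Sst nuclei had 1501, 36.0 and 80.3 CPM in the knockout and 62.1, 107 and 36.4 CPM in the wild type. Knockout replicate 1 was far above the rest in both classes, and the log2 fold change of Pvalb over Sst nuclei was 2.68 (SE 0.20) with it and 2.54 without it. Syt2 averaged 225 ± 53.7 CPM in Pvalb and 5.22 ± 7.68 CPM in Sst nuclei (SD, n = 6), and the Sst nuclei of all 3 wild-type libraries held no Syt2 UMI. On the log2 scale it was higher by 5.86 (SE 0.43, edgeR adjusted p = 1.16e-17). Syt2 could pass the filter only through Pvalb nuclei, so it had to be higher there. Pclo, an active zone scaffold, was the only other called gene among the 14 tested of the release machinery (log2 -0.44, SE 0.16). Pclo was not called without knockout replicate 2 or without wild-type replicate 2 or 3 (highest edgeR adjusted p = 0.177).

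Bcan was higher in Pvalb nuclei, at 204 ± 67.2 CPM compared with 35.6 ± 20.1 CPM in Sst nuclei (SD, n = 6; log2 2.50, SE 0.28). Because Bcan could pass the filter only through Pvalb nuclei, it had to be higher there. It was 1 of 4 genes tested out of 21 of the perineuronal net and matrix list, and Ptprs, a proteoglycan receptor, was called higher too (log2 0.41), but not when any library other than wild-type replicate 2 was left out (highest edgeR adjusted p = 0.123). Cntn1, a contactin, was called lower (log2 -0.59), but not without knockout replicate 3 or without wild-type replicate 1 or 2 (highest edgeR adjusted p = 0.197). Acan was too sparse to test. All 10 tested genes of the neurofilament and axon initial segment list were higher, but only Ank1 (log2 0.81) and Sptan1 (log2 0.44) were called, and neither was without knockout replicate 1. Sptan1 was also not called without knockout replicate 2 or wild-type replicate 2 or 3.

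Ppargc1a was higher in Pvalb nuclei, and most transcripts encoded by mitochondrial DNA were lower. Ppargc1a, the coactivator of mitochondrial gene programmes, averaged 260 ± 94.6 CPM in Pvalb and 102 ± 40.0 CPM in Sst nuclei (SD, n = 6; log2 1.33, SE 0.22; edgeR adjusted p = 1.42e-06). It was higher in 5 of 6 libraries, and of the 9 tested genes out of 20 for mitochondrial energy supply Atp5b was the other one called (log2 0.51). Atp5b was not called when any of the 3 knockout libraries or wild-type replicate 1 was left out (highest edgeR adjusted p = 0.163). Of the 9, 7 were above and 2 below 0, and against Vip nuclei 0 of 4 tested were called by edgeR, with 0 at an unadjusted p under 0.05. All 10 tested transcripts encoded by mitochondrial DNA were lower in Pvalb nuclei, 8 of them called, and the median on the log2 scale was -0.53. Without knockout replicate 1, 3 were called and the median was -0.39. The filter on mitochondrial UMIs applied to both classes, so these are levels among barcodes below the same limit.

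Lineage regulators were split, with 2 called higher and 3 lower among 8 tested of 20. Mef2c, a transcription factor required for Pvalb neurons in mouse, was higher in all 6 libraries, at 1358 ± 491 CPM in Pvalb and 631 ± 318 CPM in Sst nuclei (SD, n = 6; log2 1.15, SE 0.14). Zeb2 was higher (log2 0.75) in 5 of 6. Lhx6 was lower in all 6 libraries, at 95.4 ± 42.3 CPM in Pvalb and 180 ± 58.5 CPM in Sst nuclei (log2 -0.89, SE 0.25). The edgeR adjusted p of Lhx6 was 0.00444, 0.0145 when knockout replicate 1 was left out and, by DESeq2, 0.0513. Satb1 (log2 -0.92) and Sox6 (log2 -0.61) were lower in 5 of 6 libraries, and neither passed without knockout replicate 1.

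Calcium genes were divided as well. The release channel Itpr1 was higher (log2 1.55), although it had too few UMIs to test without knockout replicate 1, and so was the plasma membrane pump Atp2b2 (log2 0.66). The calcium buffer Calb1 was lower, at 60.7 ± 36.9 CPM in Pvalb and 233 ± 98.2 CPM in Sst nuclei (SD, n = 6; log2 -2.13, SE 0.26). Of the synapse adhesion list 4 genes were called higher, among them Il1rapl2 (log2 1.84) and Cntn5 (log2 1.23). Another 5 were called lower, among them Ptprt (log2 -1.94) and Nxph1 (log2 -0.52), and the list's median was -0.023. Without knockout replicate 1, 2 were called higher and 2 lower of 12 tested, and Il1rapl2 and Ptprt had too few UMIs to test. Nxph1 was not called without knockout replicate 1 or wild-type replicate 1 (highest edgeR adjusted p = 0.106).

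Of 10 markers of the Sst class 4 were tested, and all 4 were lower. Markers that passed the filter only through Sst nuclei, Npy and Grin3a among them, had to be lower. Npy, the neuropeptide of many Sst neurons, had 2.88, 0 and 24.1 CPM in the Pvalb nuclei of the knockout and 17.7, 0 and 107 CPM in those of the wild type. Sst nuclei had 283, 1565 and 1915 CPM in the knockout and 2679, 3152 and 2059 CPM in the wild type. The classes did not overlap (log2 -6.62, SE 0.29). Elfn1, which shapes excitatory input onto Sst neurons, was lower by 3.44 and Crhbp, a peptide-binding protein, by 1.96 on the log2 scale. Aplp1, a relative of the amyloid precursor protein, was the 1 called gene of 7 tested in the amyloid and tau list (123 ± 52.2 CPM in Pvalb and 259 ± 62.5 CPM in Sst nuclei, log2 -1.26). App itself did not pass (log2 -0.32, SE 0.15; edgeR adjusted p = 0.127).

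Among other genes named for large fold changes, Cemip, a hyaluronan-binding protein of the basket cell list, was higher (249 ± 128 CPM in Pvalb and 10.5 ± 11.6 CPM in Sst nuclei, log2 4.41). Cemip could pass the filter only through Pvalb nuclei, so it had to be higher there. Srrm4, a neuronal splicing regulator, averaged 353 ± 64.7 CPM in Pvalb and 42.7 ± 21.3 CPM in Sst nuclei (log2 2.90, SE 0.23). It too could pass the filter only through Pvalb nuclei and had to be higher there. Tmem108 averaged 699 ± 116 CPM in Pvalb and 91.1 ± 51.6 CPM in Sst nuclei (log2 2.76). Slc4a4, a bicarbonate transporter that also counts among astrocyte markers, averaged 211 ± 63.4 CPM in Pvalb and 47.6 ± 36.2 CPM in Sst nuclei (log2 2.25). The other 9 astrocyte markers were too low to test, and of these Slc1a3 averaged 18.2 ± 19.3 CPM in Pvalb and 8.43 ± 11.54 CPM in Sst nuclei and Slc1a2 19.9 ± 19.9 and 41.2 ± 51.03 CPM (SD, n = 6). The part of astrocyte RNA in the level of Slc4a4 was not tested. Of the genes that were lower, Man1a, a mannosidase of the Golgi, averaged 23.2 ± 21.8 CPM in Pvalb and 317 ± 187 CPM in Sst nuclei (log2 -4.36, SE 0.33). Man1a could pass the filter only through Sst nuclei, so it had to be lower in Pvalb nuclei. Trhde, an enzyme that degrades thyrotropin-releasing hormone, averaged 42.01 ± 29.6 CPM in Pvalb and 397 ± 286 CPM in Sst nuclei (log2 -3.42, SE 0.27).

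**Figure D4:**
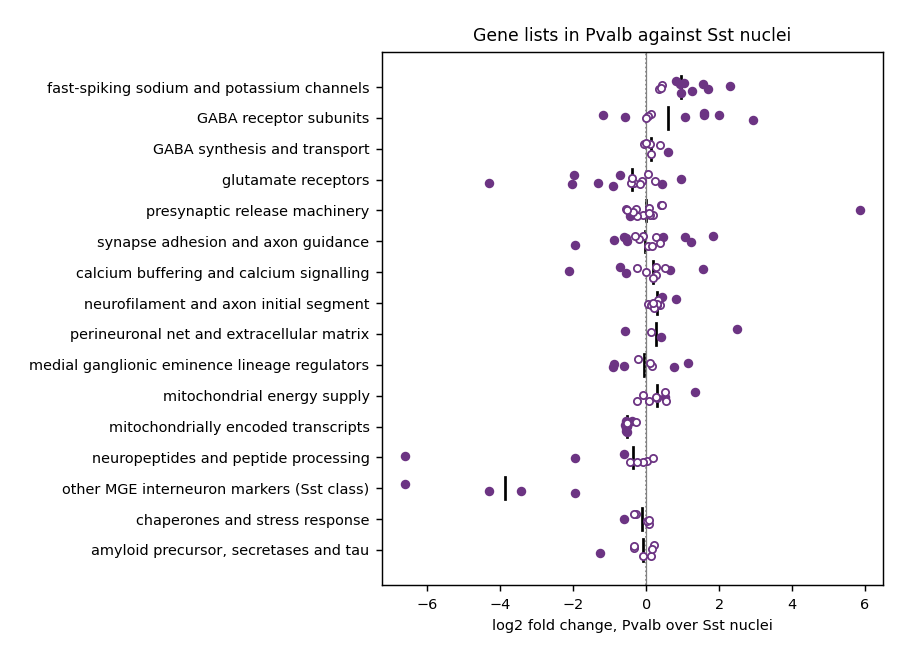
Log2 fold change of Pvalb over Sst nuclei for the tested members of 16 gene lists (edgeR, 6 libraries); filled points have an adjusted p under 0.05, the black bar is the list's median and the dotted line the median of all 1580 genes. The 11 tested channel genes lie above 0 with 8 filled points, and the 10 mitochondrially encoded transcripts lie wholly below 0 with 8.

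Against Vip nuclei, interneurons of the caudal ganglionic eminence, most of the channel genes tested were again higher. This comparison shares the Pvalb sums with the one above, so the values stand side by side. Of 536 genes tested 195 (36.4%) were called, 94 higher (17.5%) and 101 lower (18.8%) in Pvalb nuclei, and without knockout replicate 1 the test called 129 of 495. Of 8 channel genes tested 7 were called higher and 1 lower, and their median on the log2 scale was 1.36, against 0.019 over all genes tested. Kcna1 was higher by 2.80 (SE 0.23), Kcnc1 by 1.45 (SE 0.18) and Scn8a by 1.60 on the log2 scale, each in an edgeR fit with the library as a block. The lower one was Kcnn2, a calcium-activated potassium channel, at 114 ± 57.1 CPM in Pvalb and 375 ± 144 CPM in Vip nuclei (SD, n = 6; log2 -1.63).

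Cacna2d2, an auxiliary calcium channel subunit, had the largest positive fold change against Vip nuclei among the genes named by rule. It had 374, 573 and 662 CPM in the Pvalb nuclei of the knockout and 795, 488 and 1074 CPM in those of the wild type. Vip nuclei had 17.3, 29.4 and 97.5 CPM in the knockout and 90.2, 73.4 and 54.4 CPM in the wild type. The classes did not overlap (log2 3.80, SE 0.26; edgeR adjusted p = 2.12e-10). Since Cacna2d2 could pass the filter only through Pvalb nuclei, it had to be higher there. Gria3, an AMPA receptor subunit, averaged 865 ± 269 CPM in Pvalb and 146 ± 136 CPM in Vip nuclei (SD, n = 6; log2 2.77, SE 0.28), whereas against Sst nuclei its difference did not pass (log2 0.23; edgeR adjusted p = 0.269).

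Erbb4, which stood out against Sst nuclei, did not pass against Vip nuclei. It had 6358, 558 and 715 CPM in the Vip nuclei of the knockout and 519, 257 and 508 CPM in those of the wild type (log2 of Pvalb over Vip nuclei 0.092, SE 0.21; edgeR adjusted p = 0.785; -0.28 without knockout replicate 1). Of 14 markers of the caudal classes 4 were tested, and a marker that passed the filter only through Vip nuclei had to be lower. All 4 were lower, among them Adarb2 at 159 ± 203 CPM in Pvalb and 5389 ± 5205 CPM in Vip nuclei (log2 -5.03) and the transcription factor Prox1 (log2 -5.72). Tac2, a tachykinin gene, had 1 UMI in 1 library of Pvalb nuclei and averaged 680 ± 582 CPM in Vip nuclei. All 9 tested mitochondrially encoded transcripts were lower than in Vip nuclei too, 6 of them called, or 3 without knockout replicate 1.

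Between the genotypes no gene of the Pvalb nuclei passed the test. Over 6 libraries edgeR called 0 of 1028 genes (0%), with 78 (7.59%) at an unadjusted p under 0.05, of which 62 were higher and 16 lower in knockout. Over the 5 libraries of 1 software version it called 0 of 888 genes (0%), with 40 (4.50%) at an unadjusted p under 0.05, 20 higher and 20 lower. DESeq2 called 0 in both, with 81 and 15 at an unadjusted p under 0.05. The sums behind these tests were 347823, 45337 and 83042 UMIs in knockout and 56616, 129224 and 46574 UMIs in wild type, from as few as 9 nuclei, so at this depth only large differences were detectable.

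The smallest p over 6 libraries belonged to Chgb, a secretory granule protein. It had 97.8, 110 and 205 CPM in knockout and 389, 325 and 515 CPM in wild type. All 3 knockout libraries lay below all 3 wild-type libraries (138 ± 58.5 and 410 ± 96.9 CPM, SD, n = 3 each). The log2 difference was -1.51 with an SE of 0.41 (edgeR adjusted p = 0.610), and over 5 libraries it was -1.31 (edgeR adjusted p = 0.797). In knockout replicate 2 this rested on 5 UMIs.

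Odf2, a centrosome protein, had 97.8, 154 and 96.3 CPM in knockout and 353, 248 and 322 CPM in wild type. Dlst, a subunit of a mitochondrial dehydrogenase complex, had 63.3, 66.2 and 72.3 CPM in knockout and 194, 193 and 236 CPM in wild type. For both, the knockout libraries lay below the wild-type ones (log2 -1.35 and -1.47; edgeR adjusted p = 0.610 for each). Acp1, a phosphatase (149 ± 62.3 CPM in knockout and 386 ± 101 CPM in wild type), and Nom1 (68.9 ± 26.2 and 218 ± 58.5 CPM) had the same order without overlap (SD, n = 3 each). Rab11fip2, a trafficking adaptor that was among the 10 smallest p values over 5 libraries only, did so too (73.8 ± 18.5 CPM in knockout and 216 ± 22.8 CPM in wild type, SD, n = 3 each). Groups did not overlap in 103 of 1028 genes (10.0%) over 6 libraries and in 180 of 888 (20.3%) over 5.

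Zfr, Fut9, Spire1, Plxna4 and Pcdh9 had higher levels in knockout and completed the 10 smallest p values over 6 libraries. Pcdh9, a protocadherin with 870487 intron bases, had 4131, 419 and 807 CPM in knockout and 265, 224 and 365 CPM in wild type. Its log2 difference was 2.93 (SE 0.90) over 6 libraries and 1.13 (SE 0.38) over 5, and neither passed (edgeR adjusted p = 0.610 and 0.797). Plxna4, a semaphorin receptor, had 687, 353 and 373 CPM in knockout and 177, 178 and 193 CPM in wild type (log2 1.54, and 0.93 over 5 libraries).

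**Figure D5:**
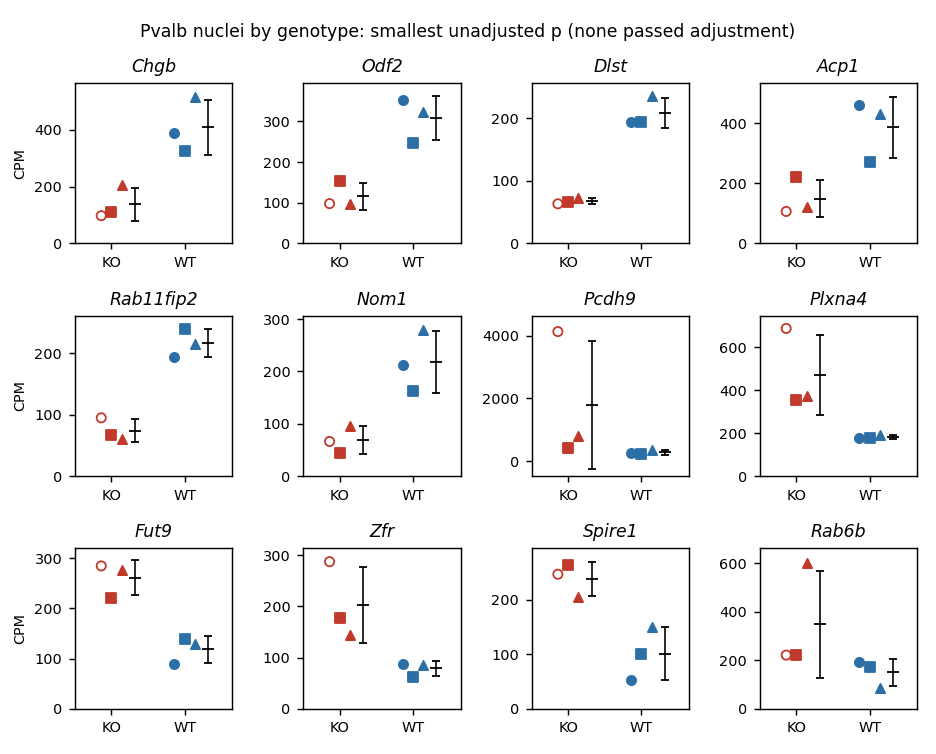
CPM in the Pvalb nuclei of each library for 12 genes selected from those with the smallest unadjusted p in the 6- or 5-library comparison. Malat1 and Cdh7, which had the smallest p over 5 libraries, are not shown. Knockout (red) is left of wild type (blue), the open circle is knockout replicate 1, and the black bar is the mean and SD of 3 libraries. The groups are separate in every panel, yet the smallest edgeR adjusted p was 0.610 over 6 libraries and 0.797 over 5.

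Several large differences over 6 libraries were those of knockout replicate 1. Erbb4 differed by 3.67 on the log2 scale with that library and by 0.22 without it, and Kcnc2 by 2.71 and 0.035. Cntnap2, an adhesion protein with 2234609 intron bases, had 5767, 243 and 265 CPM in knockout and 177, 209 and 215 CPM in wild type. Its log2 difference was 3.71 with knockout replicate 1 and 0.27 without it, and neither passed the edgeR test.

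Over the 5 libraries the smallest p values belonged to Malat1, an abundant nuclear RNA, and Cdh7, a cadherin. Malat1 made up 9.13%, 20.9% and 17.4% of the UMIs of Pvalb nuclei in knockout and 22.8%, 27.1% and 26.7% in wild type (log2 -0.49 over 5 libraries, SE 0.13; edgeR adjusted p = 0.797). The order was the same over all kept barcodes, with 9.11%, 23.1% and 18.1% in knockout and 26.5%, 26.1% and 29.6% in wild type, and in Sst nuclei, with 7.63%, 20.8% and 13.0% in knockout and 23.0%, 21.3% and 25.4% in wild type. Cdh7 had 118, 66.2 and 0 CPM in knockout and 300, 201 and 215 CPM in wild type. The knockout libraries lay below the wild-type ones (log2 -3.26 over 5 libraries, SE 0.84; edgeR adjusted p = 0.797), and those of the 5-library comparison held 3 and 0 UMIs.

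The lists of the class showed no called member between genotypes. Of the channel list 11 genes were tested over 5 libraries, 8 above and 3 below 0, with a median log2 difference of 0.035, against 0.016 over all 888 genes. Kcna1 had 264, 860 and 602 CPM in knockout and 742, 797 and 1245 CPM in wild type, with overlapping groups (log2 -0.43 over 5 libraries, SE 0.36; edgeR adjusted p = 0.929). All 5 tested GABA receptor genes were below 0 over 5 libraries (median -0.43), whereas over 6 libraries 5 of 8 were above 0. Of 10 mitochondrially encoded transcripts 9 were above 0 over 5 libraries (median 0.25) and 6 over 6 (median 0.016). The 6 tested lineage regulators had a median of 0.0097 over 5 libraries.

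Pvalb itself, which the gate read, was at 296, 463 and 458 CPM in knockout and 512, 549 and 429 CPM in wild type. App, whose human transgene the files do not list as a gene of its own, had 448, 419 and 783 CPM in knockout and 795, 410 and 687 CPM in wild type, and the groups overlapped (log2 -0.13, SE 0.47; edgeR adjusted p = 0.961). Bin1, Aplp2 and Mapt, the other members of the amyloid and tau list tested over both sets of libraries, were not called either. Apoe had 80.5, 88.2 and 120 CPM in knockout and 106, 108 and 150 CPM in wild type and was too low to test. No immediate early gene passed the filter, and Arc gave 0 UMIs in the Pvalb nuclei.

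Whether the genotype difference itself differed between Pvalb and Sst nuclei was put to edgeR as an interaction of class and genotype. The term was called for 0 of 2598 genes (0%) over 6 libraries, with 102 (3.93%) at an unadjusted p under 0.05 by edgeR and 21 by DESeq2, which called 0. Over 5 libraries it was called for 0 of 2346 genes (0%), with 99 (4.22%) at an unadjusted p under 0.05 by edgeR and 22 by DESeq2, which called 0. For Cdh7 the difference between the classes was -3.21 on the log2 scale over 5 libraries (edgeR adjusted p = 0.432) and -2.07 over 6 (0.333), and for Pcdh9 it was 1.38 over 5 (0.488).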

How the data were processed

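The authors deposited raw UMI counts for 32285 genes in each called barcode. Per the file headers they came from Cell Ranger 7.0.0 in knockout replicate 1 and from 6.1.2 in the other 5 libraries. The build was mm10, per the submitters' processing notes, which also list Seurat; the handling of intronic reads is not given in these sources. Deposited counts were summed per library over the gated nuclei and tested with edgeR 4.0.16 in R 4.3.3 (glmQLFit, glmQLFTest, TMM, filterByExpr, two-sided), with Benjamini-Hochberg adjustment over all genes tested and a threshold of 0.05; genes read by a gate were left untested. DESeq2 1.42.0 was an alternative. The mouse was the replicate, nuclei were not. CPM are UMIs per 1e6 UMIs of the summed nuclei, without TMM scaling, and SDs are over libraries. Doublets were called with Scrublet in scanpy 1.11.5 (expected rate 6%) and kept. Python 3.11.15 and scipy 1.17.1 gave the exact tests. Gene positions and intron bases came from GENCODE M21, in which 32235 identifiers matched.

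The gate and the 29 gene lists (435 of 436 symbols matched to 1 identifier) were chosen with earlier results of these data known. The text names Trem2, App, Apoe, gate and marker genes, the 10 smallest p of each genotype comparison, up to 4 members of a list with the smallest p, and up to 12 genes per direction with the largest fold change between classes among called genes with 1 sign in 6 libraries and at least 50 CPM. Of these only a part is described, and some are not reported here. Kcnc2 and Erbb4 against Vip nuclei, Cdh7 and Pcdh9 in the class by genotype test, Cntnap2, Slc4a4, Slc1a2, Slc1a3, Aldoc, Cpne5, Kcnt2 and Kcnc4 were singled out after their values were seen. Tests were tried on simulated counts with known changes.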

Additional observations from a re-analysis of the deposited data

Results flagged for a closer look

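Outside the filter, 14 barcodes met every UMI condition of the Pvalb gate. All 14 had more than 5% mitochondrial UMIs. Knockout replicates 1 to 3 held 0, 1 and 4 of them and wild-type replicates 1 to 3 held 3, 5 and 1, and none entered a comparison.

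Among 48 log2 differences between classes that were checked library by library, 3 had a library far from the other 5, where chance gives about 1 in 20. Adarb2, Pvalb minus Vip nuclei, was -7.29 in knockout replicate 2, where the Pvalb nuclei held no UMI, and between -5.14 and -4.48 in the others. Sorcs3, a sorting receptor, was -4.62 in wild-type replicate 3, where the Pvalb nuclei held no UMI, and between -3.16 and -2.38 in the others. Cntnap5a, an adhesion protein, was 4.65 in knockout replicate 3, where the Vip nuclei held no UMI, and between 0.86 and 2.07 in the others.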

How the results depend on the processing

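The genotype comparison of Pvalb nuclei called 0 genes over 6 libraries and over 5 with RLE size factors, with DESeq2, with doublets removed, with at least 3 Pvalb UMIs, with at least 1 Lhx6 UMI and with at least 1000 genes. Without the filter on low counts it called 201 genes over 6 libraries, all higher in knockout, and 2 over 5 (Cdh7 and Hmcn1, both lower); the cause was not tested. Leaving out 1 library gave 0 to 1 over 6 libraries (Grik1 without knockout replicate 3) and 0 to 14 over 5. The 14 came without knockout replicate 2, which leaves knockout replicate 3 as the only knockout library, assumed to vary like the wild type; Malat1, Cdh7, Pcdh9 and Rab6b were among them. The class by genotype term called 1 gene without the filter over 6 libraries and 0 to 1 over 5 when a library was left out (Arpp21 without wild-type replicate 1). The genes named here were picked after their values were seen.

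Pvalb against Sst nuclei gave 373 calls, and 229 by DESeq2, 833 without the filter, 172 with at least 3 Pvalb UMIs and 243 to 405 when a library was left out. Chosen after seeing the data, the knockout libraries alone gave 248 and the wild-type libraries alone 218. Pvalb against Vip nuclei gave 195 calls, and 769 without the filter, 105 with at least 3 Pvalb UMIs, 134 by DESeq2 and 129 to 235 when a library was left out. Without the library block these comparisons gave 81 and 50 calls. Erbb4 against Vip nuclei turned to -0.28 without knockout replicate 1 and -0.22 with at least 3 Pvalb UMIs, was 0.26 without knockout replicate 3, and was called in none of these. Of the other genes named by rule in the class comparisons, none changed sign in the alternatives that could be fitted.

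The share difference of 0.00959 percentage points ran from -0.0676 to 0.126 when a library was left out. It turned to -0.0434 after thinning to 2000 UMIs, which left 1, 0 and 3 nuclei in knockout and 2, 5 and 0 in wild-type replicates. Non-striatal GABAergic nuclei are a smaller total, so their values are on another scale. Of these, Pvalb nuclei made up 3.07% in knockout and 4.34% in wild type, a difference of -1.27 points (exact permutation test, two-sided, p = 0.8). No paired analysis was possible because the labels give no replicate numbers that knockout and wild-type mice share. From 9 nuclei a library, small differences were not detectable.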
